A study of Mus musculus with 6 samples.

Results

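The Hox genes are 37 genes with their own probe sets, out of 19938 genes that a single platform symbol named on mouse gene arrays hybridised with RNA of long-term haematopoietic stem cells (LT-HSCs). They were taken as every probe set whose only symbol was that of a Hox gene of cluster A, B, C or D, and each gene had exactly 1 such probe set. They were 10 genes of cluster A on chromosome 6, 9 of cluster B on chromosome 11, 9 of cluster C on chromosome 15 and 9 of cluster D on chromosome 2. The symbol Hoxb8 occurred only on a probe set that it shared with Hoxb7, which was left out. The study set LT-HSCs of Lxn-/- mice, in which exons 2 to 4 of the latexin gene (Lxn) are deleted and the protein is missing, against LT-HSCs of WT mice with an intact gene. Latexin is an inhibitor of carboxypeptidases. Both groups were C57BL/6 females aged 8 to 12 weeks, and each had 3 arrays. Every array carried RNA from a separate sort of about 100000 bone marrow cells, pooled from 10 to 20 mice and gated as Lin-, Sca1+, c-Kit+, CD34- and Flt2-, the last of these markers spelled here as in the labels. The p-values below therefore measure the spread between pools of mice, not between single animals.

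Hox genes encode homeodomain transcription factors. They lie side by side in 4 clusters, and genes at the same place in different clusters are paralogs that share a number, low numbers at the 3′ end and high numbers at the 5′ end. In the embryo the numbers follow the order in which the genes are used from head to tail. In blood, genes of clusters A and B are used in stem and progenitor cells and are shut off as the cells mature, and sustained Hoxa9 or Hoxa10 is a common feature of acute leukaemias. Trithorax-type activators such as the MLL protein (gene Kmt2a) keep the clusters active and Polycomb complexes keep them silent, while the TALE homeodomain proteins of the Meis and Pbx families bind DNA together with Hox proteins.

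Values are log2 expression values after robust multi-array averaging (RMA). Across the 23410 probe sets with a symbol, the median difference between Lxn-/- and WT was -0.0099, and limma called 0 of them at an adjusted p of 0.05, the lowest adjusted p being 0.993. Lxn itself read 8.66, 8.78 and 8.78 on the Lxn-/- arrays, against 8.99, 9.09 and 9.55 on the WT arrays. The difference was -0.47 (SE 0.14, unadjusted p = 0.0101, adjusted p = 0.993 in limma), and every Lxn-/- array was below every WT array. Whether that probe set reads the deleted exons was not tested. WT replicate 3 stood apart from the other arrays on the first principal component of all tested probe sets, which held 38.8% of the variance, with a score of 23.3 against a range of -12.6 to 7.97 on the other 5 arrays. The 15 neutrophil and monocyte markers averaged 9.92, 8.81 and 10.72 on Lxn-/- arrays 1 to 3, against 10.24, 9.59 and 8.44 on WT arrays 1 to 3, so WT replicate 3 had the lowest mean of the 6. The 14 measured LT-HSC markers include Hoxb5, itself one of the Hox genes, and Meis1, which the TALE list holds too. All 14, with the stem cell factor receptor gene Kit at 12.87 over the 6 arrays, were above the receptor background defined next. Cd34 and Flt3, whose proteins mark cells outside the LT-HSC gate, were also above it, with means of 13.15 and 11.96.

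No detection call came with the values, so each Hox probe set was read against 1210 probe sets of odorant and pheromone receptors, genes that work in the sensory cells of the nose. The 95th percentile of their means over 6 arrays was 6.93, and a Hox gene whose mean lay above it is called above background. Probe sets differ in how strongly they bind, so the value of one gene is not an amount that can be set against another gene's, and the receptor probe sets were not matched to the Hox ones for base composition. By this reading 18 of 37 Hox genes were above background, against 69.6% of all tested probe sets. They were 8 of 10 genes in cluster A, 8 of 9 in cluster B, 0 of 9 in cluster C and 2 of 9 in cluster D. When each array was read against its own receptor probe sets, 18, 18 and 17 Hox genes were above on the Lxn-/- arrays and 18, 18 and 17 on the WT arrays, and cluster C had 0 on every array. In bulk RNA, fewer cells that use a gene and less RNA per cell cannot be told apart.

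**Figure D1:**
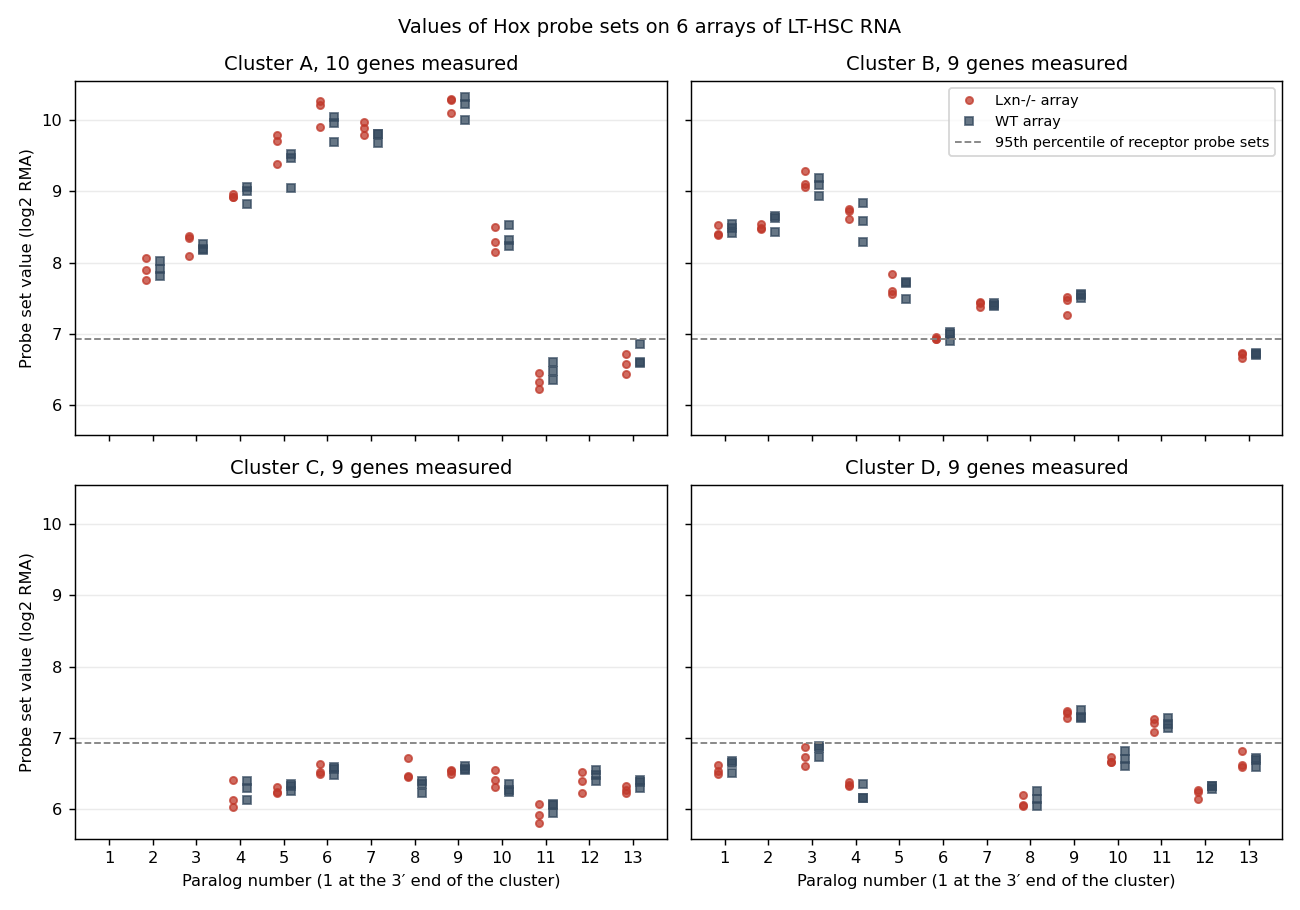
Log2 RMA value of each Hox probe set (y axis) by paralog number (x axis, 1 at the 3′ end), with a panel for each cluster, circles for the 3 Lxn-/- arrays and squares for the 3 WT arrays, and a dashed line at the receptor background of 6.93. Points of clusters A and B lie above the line up to paralog 10 and 9, except that Hoxb6 lies at the line, all points of cluster C lie below it, and in cluster D Hoxd9 and Hoxd11 lie above it.

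In cluster A the genes above background ran without a gap from Hoxa2 to Hoxa10, each over 99.3% to 100% of the receptor probe sets. Hoxa9, which mouse stem cells need for full repopulating activity, read 10.28, 10.10 and 10.29 on Lxn-/- arrays, against 10.32, 10.21 and 10.00 on WT arrays. Hoxa10, which expands early progenitors when overexpressed, read 8.15, 8.28 and 8.50 on Lxn-/- arrays, against 8.32, 8.23 and 8.53 on WT arrays. The ranges of the genotypes overlapped for both genes. Hoxa4, another gene able to expand mouse stem cells when overexpressed, read 8.97, 8.92 and 8.91 on Lxn-/- arrays, against 9.06, 8.999 and 8.83 on WT arrays. Hoxa3, known from the patterning of thymus and parathyroid, read 8.34, 8.09 and 8.37 on Lxn-/- arrays, against 8.26, 8.17 and 8.19 on WT arrays. Hoxa2, a gene of the hindbrain and branchial arches, read 8.06, 7.76 and 7.90 on Lxn-/- arrays, against 8.02, 7.91 and 7.82 on WT arrays. The genotypes overlapped in all 3, and no array was the lowest for all of them. Past Hoxa10 the genes of the cluster were below the background. Hoxa11, a limb and urogenital gene, lay over 86.7% of the receptor probe sets, with 6.33, 6.24 and 6.46 on Lxn-/- arrays, against 6.36, 6.60 and 6.48 on WT arrays. Hoxa13, at the 5′ end of the cluster, lay over 90.3% of them.

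Cluster B was above background from Hoxb1 to Hoxb9, with Hoxb8 not measured on its own and Hoxb13 below. Hoxb4, the Hox gene best known for expanding stem cells when overexpressed, read 8.73, 8.61 and 8.76 on Lxn-/- arrays, against 8.83, 8.58 and 8.29 on WT arrays. Hoxb3, its neighbour, read 9.28, 9.06 and 9.10 on Lxn-/- arrays, against 9.18, 9.09 and 8.94 on WT arrays. WT replicate 3 was the lowest array for both genes, and the genotypes overlapped. Hoxb5, a marker of mouse LT-HSCs in reporter studies, read 7.60, 7.56 and 7.85 on Lxn-/- arrays, against 7.48, 7.71 and 7.72 on WT arrays. Hoxb1 and Hoxb2, genes of hindbrain segments, had 6-array values that stayed between 8.38 and 8.65. Hoxb7 stayed between 7.37 and 7.45, and Hoxb9 between 7.27 and 7.56. All of these lay above the receptor background on every array. Hoxb6, which expands progenitors when overexpressed in mouse marrow, was the gene just inside the threshold at a mean of 6.96, and was above it on 4 of 6 arrays.

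None of the 9 genes of cluster C was above background, and they lay over 75.3% to 89.4% of the receptor probe sets. In cluster D, Hoxd9 read 7.37, 7.34 and 7.28 on Lxn-/- arrays, against 7.30, 7.28 and 7.40 on WT arrays. Hoxd11 read 7.26, 7.21 and 7.09 on Lxn-/- arrays, against 7.15, 7.28 and 7.20 on WT arrays. Both are known as limb and axial skeleton genes, and they lay over 97.4% and 96.8% of the receptor probe sets. Hoxd3, just outside the threshold, had a mean of 6.78. With the 90th percentile of receptor probe sets as the threshold, 23 Hox genes were above it, 5 of them in cluster D and 0 in cluster C. With the 99th percentile, 12 were above it, the 8 of cluster A and the 4 genes Hoxb1 to Hoxb4.

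By paralog number, 7 of 11 genes in groups 1 to 4 were above background, 6 of 10 in groups 5 to 8 and 5 of 16 in groups 9 to 13. Counted over groups 1 to 10, all 8 measured genes of cluster A and all 8 of cluster B were above it, against 0 of 6 in cluster C and 1 of 6 in cluster D. In groups 11 to 13 it was 1 of 9, Hoxd11. These counts describe the probe sets and carry no test.

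The comparison of Lxn-/- with WT asks whether loss of latexin goes with a different Hox programme in the stem cell gate. Of the 37 Hox genes, 0 passed an adjusted p of 0.05 in limma, as did 0% of all probe sets tested. At an unadjusted p of 0.05, 1 Hox gene was past the threshold, against 3.9% of all probe sets (1.47% higher and 2.43% lower in Lxn-/-). Groups without overlap occurred in 1 Hox gene that was higher and 1 that was lower, against 3.6% and 5.38% of all probe sets. The Hox counts were thus near or below the share of the whole table. The median difference over the 37 genes was -0.027, with 15 higher and 22 lower in Lxn-/-, while 45.5% of all probe sets were higher. Among the 18 Hox genes above background the median was 0.0061, with 10 higher and 8 lower. For all probe sets above background it was -0.0048, with 47.8% higher. The differences of the 37 Hox genes ran from -0.14 to 0.28. The 95% interval reached between 0.140 and 0.347 to each side of the difference, and for 36 of 37 genes it lay within a 1.5-fold change in either direction, as it did for 95.8% of all probe sets tested. Hoxa5 was the exception. The 36 genes were 17 of the 18 above background and 19 of the 19 not above it. For genes not above background, a narrow interval says little about their RNA.

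**Figure D2:**
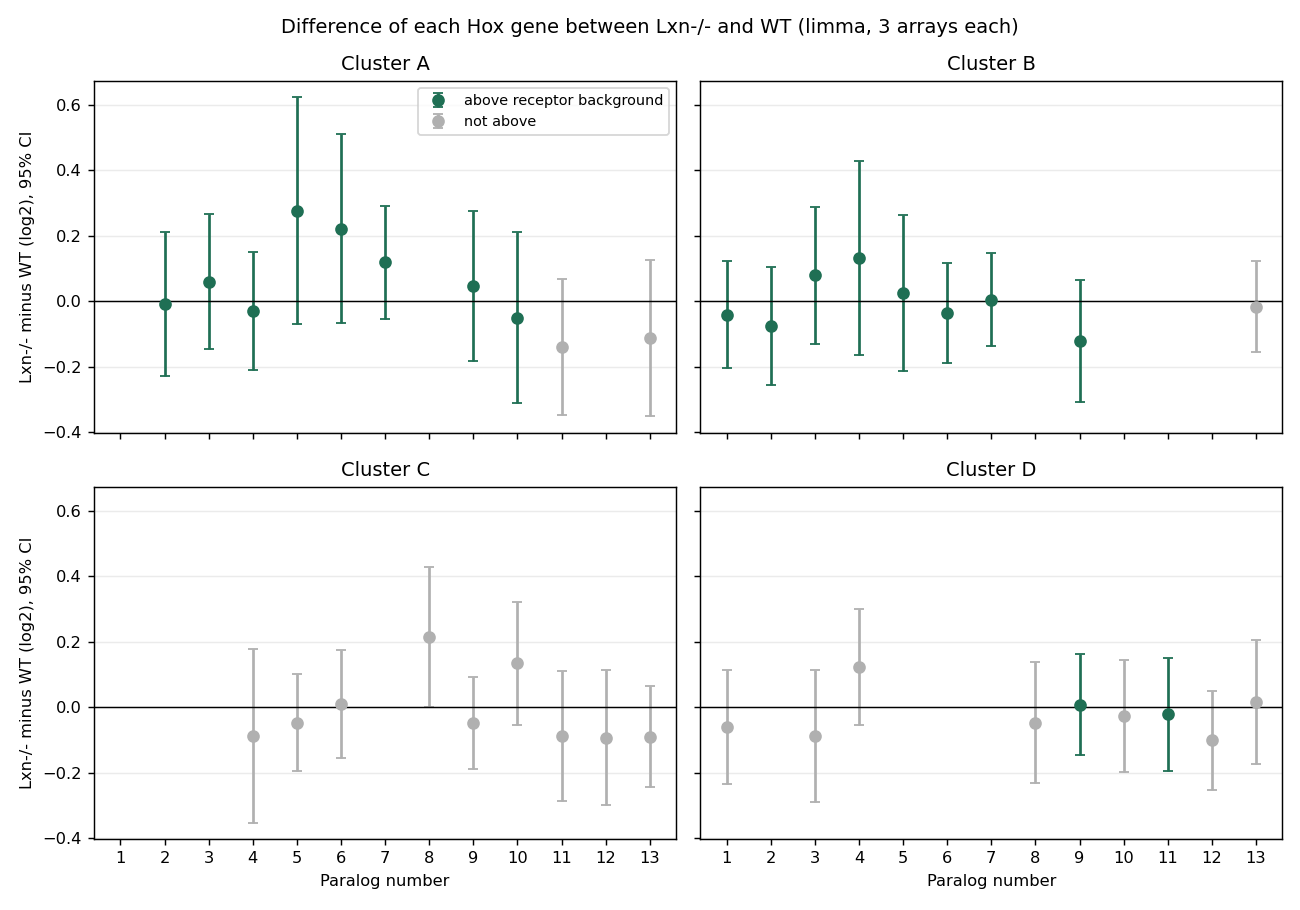
Difference between Lxn-/- and WT for each Hox gene (y axis, log2, with its 95% confidence interval from limma, 3 arrays each) by paralog number (x axis), with a panel for each cluster, green for genes above the receptor background and grey for the others. Intervals of all genes but Hoxc8 include 0, and the highest points are Hoxa5 at 0.28 and Hoxa6 at 0.22.

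By cluster the medians were 0.019 in A, -0.016 in B, -0.049 in C and -0.027 in D, and in each cluster genes lay on both sides of 0 (5 higher and 5 lower in A, 4 and 5 in B, 3 and 6 in C, 3 and 6 in D). By number, the medians were -0.030 in paralog groups 1 to 4, 0.018 in groups 5 to 8 and -0.049 in groups 9 to 13. In groups 11 to 13 the median was -0.090, with 8 of 9 genes lower, but only Hoxd11 of these was above background. These medians are descriptions, and the groups were not tested against each other.

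The 3 Hox genes above background with the lowest unadjusted p were the neighbours Hoxa5, Hoxa6 and Hoxa7. Hoxa5, which pushes human progenitors toward myeloid and away from erythroid cells when overexpressed, read 9.78, 9.38 and 9.70 on Lxn-/- arrays, against 9.52, 9.46 and 9.04 on WT arrays. Hoxa6, which promotes the growth of mouse erythroid progenitors, read 10.20, 9.90 and 10.26 on Lxn-/- arrays, against 10.04, 9.96 and 9.69 on WT arrays. Hoxa7, a gene needed for normal numbers of early progenitors in mice, read 9.88, 9.79 and 9.97 on Lxn-/- arrays, against 9.80, 9.80 and 9.68 on WT arrays. In all 3 the Lxn-/- arrays 1 and 3 were the highest of the 6, WT replicate 3 was the lowest, and Lxn-/- replicate 2 lay between WT replicate 3 and the other WT arrays. Hoxa5 averaged 9.62 ± 0.21 in Lxn-/- cells and 9.34 ± 0.26 in WT cells (SD, n = 3 each), a difference of 0.28 (SE 0.15, 95% interval -0.070 to 0.62), or 1.21-fold. Its unadjusted p was 0.103 and its adjusted p 0.993 in limma, and the exact two-sided permutation test gave p = 0.3. Hoxa6 averaged 10.12 ± 0.19 in Lxn-/- cells and 9.90 ± 0.18 in WT cells, a difference of 0.22 (SE 0.12, 95% interval -0.067 to 0.51, unadjusted p = 0.114 in limma, n = 3 each). Hoxa7 averaged 9.88 ± 0.089 in Lxn-/- cells and 9.76 ± 0.068 in WT cells, a difference of 0.12 (SE 0.074, unadjusted p = 0.147 in limma, n = 3 each). Each difference was larger than the SD of either genotype, but the genotypes overlapped and none of the 3 passed the test. Without these genes the median of the other 34 was -0.033, with 12 higher and 22 lower.

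The promoters of these 3 neighbours are shown because the genes lie next to each other and were picked above by unadjusted p. Their values went together over the arrays, but WT replicate 3 was also the lowest array for Hoxa9 and for Hoxb4 in cluster B. Whether the promoters have a part in the values was not tested. Each run is the 250 bases before the gene's start in RefSeq on GRCm38.p6, minus strand, 5′ to 3′, and the capitals mark CpG dinucleotides. Hoxa5 is at chr6:52204588-52204837, Hoxa6 at chr6:52208673-52208922 and Hoxa7 at chr6:52218574-52218823.
Hoxa5: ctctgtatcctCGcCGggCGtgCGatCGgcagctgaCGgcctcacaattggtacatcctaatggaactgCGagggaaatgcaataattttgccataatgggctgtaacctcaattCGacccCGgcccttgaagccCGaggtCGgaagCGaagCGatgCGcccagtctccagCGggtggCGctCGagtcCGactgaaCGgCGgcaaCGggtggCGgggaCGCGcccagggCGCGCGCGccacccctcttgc
Hoxa6: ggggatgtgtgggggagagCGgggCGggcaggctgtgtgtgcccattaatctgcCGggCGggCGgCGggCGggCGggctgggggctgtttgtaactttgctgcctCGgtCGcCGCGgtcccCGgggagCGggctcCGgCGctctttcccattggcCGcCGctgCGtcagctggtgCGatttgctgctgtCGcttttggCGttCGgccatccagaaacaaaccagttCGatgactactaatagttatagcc
Hoxa7: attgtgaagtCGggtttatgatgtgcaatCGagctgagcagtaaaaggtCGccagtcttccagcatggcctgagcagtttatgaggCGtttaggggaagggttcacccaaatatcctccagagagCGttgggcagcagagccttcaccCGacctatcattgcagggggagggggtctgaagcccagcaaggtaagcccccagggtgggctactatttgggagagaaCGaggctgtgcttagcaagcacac
Hoxa5 has 28 CpG in this window, Hoxa6 24 and Hoxa7 7, and their G and C make up 63.6%, 65.2% and 54.8%. RefSeq windows were found for 21 of the 37 Hox genes, 23 windows in all. Their median was 13 CpG (range 2 to 35) and 59.2% G and C, against 6 CpG (range 0 to 56) and 52.4% over all 32851 windows of the same length. A search of both strands for TGATNNAT, letters bound by Hox and Pbx proteins together, found it in 3 of the 23 Hox windows (13%), those of Hoxb1, Hoxa2 and Hoxd11, against 7.68% of all windows. TGACAG, the letters bound by Meis proteins, was in 2 (8.7%), those of Hoxa2 and Hoxa3, against 15.9% of all, and TATAAA was in 3 (13%), those of Hoxd13, Hoxd4 and Hoxa10, against 12.4% of all. Matches of different strings could share bases and were counted separately. None of the strings was in the windows of Hoxa5, Hoxa6 or Hoxa7.

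Hoxc8, a gene of thoracic vertebrae and motor neurons, was the one Hox gene past an unadjusted p of 0.05. It read 6.46, 6.46 and 6.72 on Lxn-/- arrays, against 6.36, 6.40 and 6.23 on WT arrays, so the genotypes did not overlap. It averaged 6.55 ± 0.15 in Lxn-/- cells and 6.33 ± 0.086 in WT cells (SD, n = 3 each), a difference of 0.21 (SE 0.092, unadjusted p = 0.0482, adjusted p = 0.993 in limma), while an exact permutation over the arrays gave p = 0.1, its lowest value with 3 arrays a side. Without Lxn-/- replicate 3 the difference was 0.13 (unadjusted p = 0.154 in limma), and without Lxn-/- replicate 1 it was 0.26 (unadjusted p = 0.0441 in limma). Hoxc8 was not above the receptor background on any array. Hoxd12, a digit gene, was the other gene without overlap, with 6.27, 6.14 and 6.24 on Lxn-/- arrays, against 6.33, 6.29 and 6.33 on WT arrays. The difference was -0.10 (SE 0.066, unadjusted p = 0.162 in limma), and Hoxd12 too was below the background.

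The genes with a known part in stem cell expansion did not pass the test. The differences were 0.13 (SE 0.13, unadjusted p = 0.335 in limma) for Hoxb4, 0.046 (SE 0.099) for Hoxa9, -0.049 (SE 0.11) for Hoxa10, -0.030 (SE 0.078) for Hoxa4 and -0.036 for Hoxb6. For Hoxb5, the LT-HSC marker, it was 0.026 (SE 0.10). The lower side of cluster B was led by Hoxb9, an axial skeleton gene, at -0.12 (SE 0.081, unadjusted p = 0.172 in limma) and Hoxb2 at -0.076 (SE 0.078). Hoxb3 was at 0.079 (SE 0.091), Hoxa3 at 0.060 (SE 0.089), Hoxb1 at -0.041 (SE 0.071), and Hoxa2, Hoxb7, Hoxd9 and Hoxd11 lay between -0.021 and 0.0070. Of the genes below background, Hoxa11 was at -0.14 (SE 0.090), Hoxa13 at -0.11 (SE 0.10), Hoxc10, a gene of hindlimb motor neurons, at 0.13 (SE 0.081) and Hoxd4 at 0.12 (SE 0.076), with unadjusted p between 0.136 and 0.315 in limma. Hoxc12 and Hoxc13, the second of them a hair follicle gene, were at -0.093 and -0.090, Hoxd3 at -0.088 and Hoxd13, a digit gene, at 0.015.

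Set out by array, WT replicate 3 was the lowest of the 6 arrays for 8 of the 18 Hox genes above background (44.4%), against 22.9% of all probe sets above background. In cluster A these were 5 of 8 genes, Hoxa4, Hoxa5, Hoxa6, Hoxa7 and Hoxa9, and in cluster B 3 of 8, Hoxb3, Hoxb4 and Hoxb6. On that array Hoxa5 lay 0.44 below its mean over 6 arrays on the log2 scale, Hoxb4 0.34 below and Hoxa6 0.32 below, while Hoxa10 lay 0.19 above. Lxn-/- replicate 3 was the highest array for 5 of 18 genes (27.8%), against 16.8% of all, and Lxn-/- replicate 2 for 0 of 18, against 12.0% of all. Hox genes of a cluster share their arrays and are not independent of each other, so these shares carry no test.

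**Figure D3:**
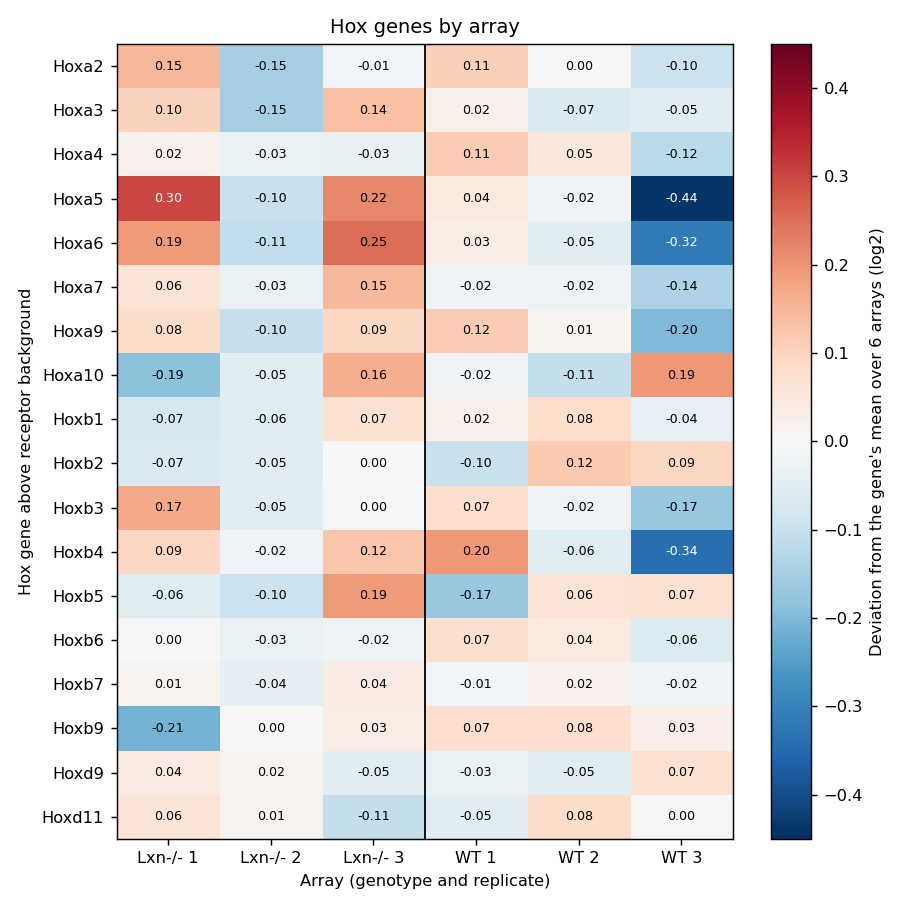
Deviation of each of the 18 Hox genes above background (rows) from its own mean over 6 arrays, in log2, for Lxn-/- arrays 1 to 3 and WT arrays 1 to 3 (columns), red above and blue below the mean. The column of WT replicate 3 holds the lowest values of Hoxa5 (-0.44), Hoxb4 (-0.34) and Hoxa6 (-0.32), and Hoxa10 is above its mean there (0.19).

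Without WT replicate 3, 0 Hox genes passed an adjusted p of 0.05 in limma and the median difference over the 37 was -0.027. At an unadjusted p of 0.05, 1 of the 37 passed (Hoxd4, with a difference of 0.19), against 681 of all 23410 probe sets. The differences without that array were 0.13 for Hoxa5 and 0.12 for Hoxa6, against 0.28 and 0.22 with all arrays. Without Lxn-/- replicate 2 they were 0.40 (unadjusted p = 0.0314) and 0.33 (unadjusted p = 0.0235), both with an adjusted p of 0.972 in limma. In that fit 3 of the 37 Hox genes were past an unadjusted p of 0.05, against 1022 of all 23410 probe sets. The differences of Hoxa5, Hoxa6 and Hoxa7 stayed positive whichever array was left out. They ranged from 0.13 to 0.40 for Hoxa5, 0.12 to 0.33 for Hoxa6 and 0.076 to 0.16 for Hoxa7. These genes were picked for their low unadjusted p on the same arrays, so the kept sign is no separate support. Hoxb4 ranged from -0.0046 without WT replicate 3 to 0.26 without WT replicate 1. Markers of mature cells also differed between arrays. Over 15 neutrophil and monocyte markers, 14 of them above background, the median difference was 0.47 (14 higher, 1 lower, against 47.8% higher over all probe sets above background). It was -0.12 without WT replicate 3 and -0.057 without Lxn-/- replicate 3, but 0.98 without Lxn-/- replicate 2 and 0.97 without WT replicate 1. The means of these markers were highest on Lxn-/- replicate 3 and lowest on WT replicate 3. All 9 measured erythroid markers were above background and lower in Lxn-/- cells (median -0.29), with means of 9.19, 9.66 and 8.98 on Lxn-/- arrays and 9.33, 9.52 and 9.93 on WT arrays. That median was -0.14 without WT replicate 3 and -0.16 without Lxn-/- replicate 3, but -0.41 without Lxn-/- replicate 2 and -0.39 without WT replicate 1. Of the 9 erythroid markers, 1 was past an unadjusted p of 0.05 and 0 had no overlap, against 2.43% and 5.38% of all probe sets on the lower side. All 13 B and plasma cell markers were above background and lower too (median -0.39), with means of 9.81, 9.96 and 9.78 on Lxn-/- arrays and 10.40, 9.99 and 10.46 on WT arrays, high on WT replicates 1 and 3. Of them 8 were past an unadjusted p of 0.05 and 6 had no overlap, all lower, against 2.43% and 5.38% of all probe sets. Their median was -0.28 without WT replicate 3 and -0.58 without WT replicate 2. Mzb1, a plasma cell chaperone gene, had an unadjusted p of 0.000162 and a difference of -0.80 in limma. Of the progenitor markers, Ly6d, which marks lymphoid progenitors, differed by -0.91 (unadjusted p = 0.00369 in limma) without overlap. Ly6d was the 1 progenitor marker past an unadjusted p of 0.05 and the 1 without overlap, against 3.9% and 8.98% of all probe sets. The median difference was 0.057 for 11 T and NK cell markers, 0.0016 for 10 stromal and endothelial markers, 0.011 for 10 progenitor markers and 0.050 for the 14 LT-HSC markers. None of these marker genes passed an adjusted p of 0.05, and their part in the Hox values was not tested. Markers of a list share their arrays and are not independent of each other, so the counts per list carry no test.

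**Figure D4:**
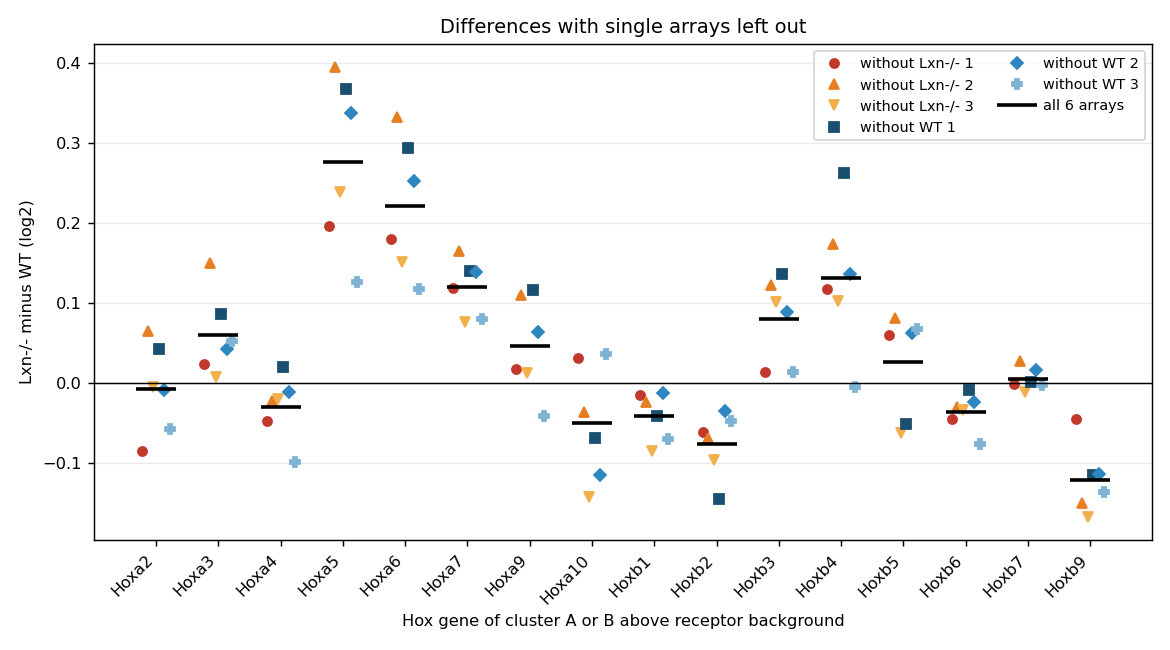
Difference between Lxn-/- and WT (y axis, log2) for the 16 genes of clusters A and B above background (x axis), with all 6 arrays (black bar) and with each array left out in turn (coloured symbols). Hoxa5, Hoxa6 and Hoxa7 stay above 0 in every case, between 0.13 and 0.40 for Hoxa5, while Hoxb4 runs from -0.0046 to 0.26.

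Of 9 genes for TALE proteins that bind DNA with Hox factors, RNA was measured for 8, 7 of them above background. The median difference was -0.0025, with 3 higher and 5 lower and 0 past an adjusted or unadjusted p of 0.05. Meis1, the partner of Hoxa9 in stem cells and leukaemia, read 12.41, 12.27 and 12.54 on Lxn-/- arrays, against 12.29, 12.29 and 12.24 on WT arrays. The difference was 0.13 (SE 0.082, unadjusted p = 0.150 in limma), and Lxn-/- replicate 2 lay within the WT range. Pbx4 read 9.82, 9.94 and 10.07 on Lxn-/- arrays, against 9.81, 9.84 and 9.81 on WT arrays, a difference of 0.12 (SE 0.078, unadjusted p = 0.150 in limma). Pbx3, another partner in leukaemia, differed by 0.070, Meis3 by -0.072 and Pbx2 by -0.049.

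**Figure D5:**
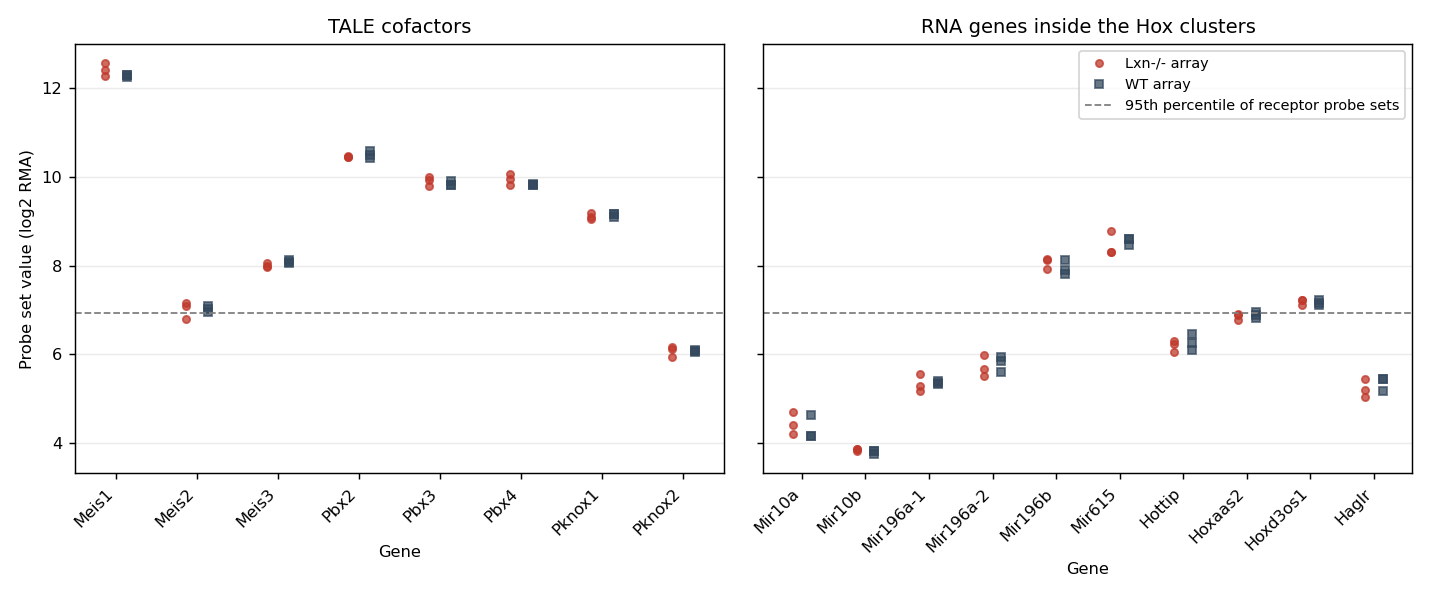
Log2 RMA values on the 3 Lxn-/- arrays (circles) and the 3 WT arrays (squares) of the TALE cofactor genes (left) and of RNA genes inside the Hox clusters (right), with the receptor background of 6.93 as a dashed line. Of the cofactors 7 of 8 lie above the line, and of the RNA genes 3 of 10, Mir196b, Mir615 and Hoxd3os1.

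The genes of factors that hold the clusters active or silent were read in the same way. Of 22 activators, 20 were above background, and the median difference was 0.011 (13 higher, 9 lower), with 0 past an unadjusted p of 0.05. Kmt2a, the MLL histone methyltransferase, read 12.10, 12.04 and 12.03 on Lxn-/- arrays, against 12.14, 12.04 and 11.84 on WT arrays, a difference of 0.045 (SE 0.088). Dot1l, which methylates histone H3 on active Hox genes in MLL leukaemia, differed by 0.15 (SE 0.12). Its difference was 0.031 without WT replicate 3 and 0.25 without WT replicate 1. Dpy30, a core MLL complex subunit, differed by 0.12 (SE 0.096), by 0.053 without Lxn-/- replicate 2 and by 0.22 without Lxn-/- replicate 3. The Kmt2a difference was -0.039 without WT replicate 3 and 0.11 without WT replicate 1. Cdx4, a homeobox activator of Hox genes in embryonic blood, differed by -0.18 (SE 0.091) at values below the receptor background. Of the Polycomb list, 21 of 23 genes were measured, all above background, with a median of 0.021 (13 higher, 8 lower). Ezh2, the methyltransferase of Polycomb repressive complex 2, differed by -0.053, its partner Suz12 by 0.046, Bmi1, which mouse stem cells need for self-renewal, by -0.10 (SE 0.067), and Cbx8, a reader of the mark, by 0.14 (SE 0.091). Past an unadjusted p of 0.05 there was 1 of the 21 members, against 3.9% of all probe sets. It was Kdm6b, which like Kdm6a in the same list is a demethylase that removes the Polycomb mark. It read 11.25, 10.94 and 11.26 on Lxn-/- arrays, against 11.03, 10.86 and 10.50 on WT arrays. The difference was 0.35 (SE 0.15, unadjusted p = 0.0423, adjusted p = 0.993 in limma), and WT replicate 3 was again the lowest array. Without WT replicate 3 the difference was 0.20, and without WT replicate 1 it was 0.47. Mtf2, a Polycomb accessory subunit, was picked out after its values were seen as the 1 member without overlap, against 8.98% of all probe sets. It read 11.20, 11.15 and 11.23 on Lxn-/- arrays, against 11.12, 11.09 and 11.12 on WT arrays, a difference of 0.082 (SE 0.062).

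Genes that flank the clusters and genes reported as Hox targets were described in the same way. Of 21 measured flanking genes, 19 were above background, with a median difference of -0.042 (7 higher, 14 lower). Skap2, a signalling adaptor beyond the 3′ end of cluster A, differed by 0.14 (SE 0.083), and Calcoco2, an autophagy receptor near cluster B, by -0.20 (SE 0.069, unadjusted p = 0.0217 in limma) without overlap but below the receptor background. Calcoco2 was the 1 flanking gene past an unadjusted p of 0.05 and the 1 without overlap, against 3.9% and 8.98% of all probe sets. All 12 reported Hox targets in blood cells were above background, with a median difference of 0.066 and 0 past an unadjusted p of 0.05. Of them 11 were higher in Lxn-/- cells, against 47.8% of all probe sets above background. These genes share their arrays and are not independent of each other, so the count carries no test. The median was 0.024 without Lxn-/- replicate 3, 0.030 without WT replicate 3 and 0.091 without WT replicate 2. Mycn, a growth regulator, was the one lower gene, at -0.18 (SE 0.11), while Lmo2 and Myb, transcription regulators of stem and progenitor cells, differed by 0.053 and 0.016. The 12 targets include Meis1 and Pbx3, which the TALE list holds too.

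MicroRNA genes lie inside the Hox clusters and their products can bind Hox messages, miR-196 in particular. Their mature sequences in RefSeq on GRCm38.p6 are shown because they fall into families by seed, with bases 2 to 8, the seed, in capitals, each written 5′ to 3′.
miR-10a-5p: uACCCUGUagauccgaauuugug
miR-10b-5p: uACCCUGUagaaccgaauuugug
miR-196a-5p: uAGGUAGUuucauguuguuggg
miR-196b-5p: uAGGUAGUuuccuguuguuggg
miR-615-3p: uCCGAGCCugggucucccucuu
The miR-10a product lies at chr11:96317186-96317208 (plus strand) in cluster B and miR-10b at chr2:74726074-74726096 (plus strand) in cluster D. The sequence of miR-196a occurs at chr11:96265187-96265208 and chr15:102973365-102973386 (plus strand), miR-196b at chr6:52230129-52230150 (minus strand) between Hoxa9 and Hoxa10, and miR-615 at chr15:103014969-103014990 (plus strand) in cluster C. Members of the miR-10 pair share their seed and differ by 1 base, U12A, counted from the 5′ end of miR-10a, and those of the miR-196 pair share theirs and differ by A12C, counted from that of miR-196a. An array probe set for such a gene may read the precursor as well as the mature RNA.

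Of 20 RNA genes listed inside the clusters, 10 were measured and 3 were above background, with a median difference over the 10 of -0.031 (4 higher, 6 lower) and 0 past an unadjusted p of 0.05. Mir196b, which sits among the expressed genes of cluster A, read 8.15, 7.93 and 8.12 on Lxn-/- arrays, against 8.12, 7.90 and 7.81 on WT arrays. The difference was 0.12 (SE 0.10, unadjusted p = 0.253 in limma), and WT replicate 3 was the lowest array, as it was for Hoxa9. Mir615, which lies in cluster C, whose coding genes were all below background, read 8.30, 8.30 and 8.77 on Lxn-/- arrays, against 8.60, 8.47 and 8.59 on WT arrays, a difference of -0.095 (SE 0.13). The long RNA gene Hoxd3os1 differed by 0.015 (SE 0.068). The genes of miR-10a, miR-10b and the copies of miR-196a were below the receptor background, at means of 4.38, 3.83, 5.36 and 5.76, although the Hox genes around Mir10a in cluster B were above it. Those of miR-10a and miR-10b lay below even the receptor median of 5.18. How well these probe sets read such short RNA was not tested, so the low values do not show that the microRNA genes are silent.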

How the data were processed

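Affymetrix mouse Gene ST arrays were hybridised with RNA of 3 Lxn-/- and 3 WT pools of sorted LT-HSCs, labelled with biotin from 100 ng of total RNA per the labels' protocols. The authors deposited log2 values after RMA, per the series' design text, and Partek 6.0 is named beside RMA per the submitters' processing notes. Of the background step, summary level, probe set definitions and genome build, the sources used here give none. The platform annotation gave 21789 of 35557 probe sets 1 symbol, 1621 several and 12147 none here. Sequences, their coordinates and gene names came from RefSeq tables on GRCm38.p6.

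All 23410 probe sets with a symbol were fitted with limma 3.58.1 in R 4.3.3 (lmFit and eBayes, no covariates, two-sided, Benjamini-Hochberg adjustment over all of them, threshold 0.05), and differences are Lxn-/- minus WT. SE is limma's moderated standard error. Intervals cover 95%. For single genes an exact two-sided permutation over the arrays was added, whose p with 3 arrays a side is at least 0.1. Precision is limited by the number of arrays. The fitting step was run on simulated data with known changes first. Lists were described by counts and medians, with no set test. The text names Lxn, each Hox gene above the receptor background and, in each cluster, the 2 Hox genes of lowest unadjusted p in each direction. From other lists it names up to 3 genes of lowest unadjusted p and up to 3 of highest mean. Flt3, Mtf2, Kdm6a, Mir10a and the copies of Mir196a lie outside this rule and were chosen after their values were seen. The members and lists were chosen with earlier results of these data known. Alternatives were other scalings, another filter on dim probe sets, another summary per gene, array weights, all probe sets, a replicate block and leaving out each array.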

Additional observations from a re-analysis of the deposited data

How the results depend on the processing

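The count of Hox genes past an adjusted p of 0.05 in limma was 0 under all settings tried, with adjusted p of 0.639 or more. At an unadjusted p of 0.05 the count of 1 was 0 with quantile normalization, a common median, without dim probe sets and with all probe sets fitted, and 0 to 3 with single arrays left out. Without dim probe sets Hoxc8, which lay below background, was itself left out and so was not tested. Array weights also gave 1, Hoxa11 at -0.21 instead of Hoxc8. Leaving out WT replicate 1 gave Hoxb4 (0.26), WT replicate 3 Hoxd4 (0.19), and Lxn-/- replicate 2 Hoxa5, Hoxa6 and Hoxc8. In these fits, in the same order, 1556, 681 and 1022 of all 23410 probe sets were past an unadjusted p of 0.05. The median Hox difference of -0.027 was -0.072 with a common median, where the median of all probe sets was -0.055, and -0.054 with quantile normalization, where it was -0.032. Without dim probe sets, a planned setting that keeps only genes above background, the median Hox difference was 0.0061, and the median of all probe sets was -0.0048. The median Hox difference over genes above background in the main fit, a setting chosen after seeing the data, was also 0.0061. With single arrays left out it was -0.032 to -0.017 over the Hox genes. The count of 18 genes above background was 18 with any single array left out. Over all genes, 914 probe sets at an unadjusted p of 0.05 became 527 without dim probe sets, 1597 with all probe sets, 1807 with array weights and 611 to 1556 with single arrays left out. With single arrays left out, the median difference ran from -0.017 to 0.023 for the TALE cofactors, -0.0018 to 0.024 for the activators, -0.0020 to 0.024 for the Polycomb list, -0.092 to 0.023 for the RNA genes, -0.059 to -0.013 for the flanking genes and 0.024 to 0.091 for the Hox targets. Apart from the filter that left out Hoxc8, the cause of these shifts was not tested, except that the settings with fewer or more probe sets differ in the number tested.

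Of the 28 Hox genes named, 18 kept their sign under every setting that fitted them. Signs turned for Hoxa2 with array weights (0.019), for Hoxb5 with quantile normalization (-0.015), a common median (-0.019) and array weights (-0.035), for Hoxb7 with the same settings (-0.024, -0.040 and -0.0070), for Hoxd9 with quantile normalization (-0.022) and a common median (-0.038), and for Hoxd13 with a common median (-0.030). With single arrays left out the sign was not fixed for Hoxa2 (-0.085 to 0.065), Hoxa4 (-0.098 to 0.019), Hoxa9 (-0.041 to 0.12), Hoxa10 (-0.14 to 0.036), Hoxb4 (-0.0046 to 0.26), Hoxb5 (-0.063 to 0.081), Hoxb7 (-0.011 to 0.027), Hoxd9 (-0.015 to 0.043), Hoxd11 (-0.058 to 0.028) and Hoxd13 (-0.055 to 0.057).

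The replicate numbers are shared by the genotypes, and the labels do not say whether same-numbered samples were handled together. The deviations of same-numbered arrays correlated at 0.37, -0.072 and -0.081. The arrays of replicate 1 were each other's best match, while those of the other numbers were not. With so few arrays these values cannot decide whether the numbers pair the samples. With the replicate number as a block, 0 Hox genes were past an unadjusted p of 0.05, the median Hox difference was -0.027 and 1173 probe sets were past that threshold.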
